A study of Homo sapiens with 2 samples.

Results

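NUDT21 CUT&Tag peaks that lay between genes but within reach of a protein-coding promoter were examined in J.gamma1 cells. A peak was taken when it overlapped no annotated gene of any type, lay more than 3 kb from every transcript start and more than 1 kb from every protein-coding gene end, and had its summit 3 to 50 kb from the nearest protein-coding transcript start. It also had to touch a peak of the other replicate by 1 bp. Of 92722 peaks of replicate 1 on chromosomes 1 to 22, X and Y, 5035 met this rule (5.43%), and of 66671 peaks of replicate 2, 5424 did (8.14%). Joined where they touched, those that met the rule in both lists formed 4770 regions. These held 4939 of the replicate 1 peaks and 5125 of the replicate 2 peaks, and the other 96 and 299 touched a peak that itself fell outside the rule. Both samples formed 1 group of J.gamma1 cells profiled with a NUDT21 antibody (Proteintech) as biological replicates, and no control sample was analysed here. J.gamma1 is an established line of T-cell acute lymphoblastic leukemia (T-ALL), a derivative of Jurkat that lacks phospholipase C gamma 1, so all values describe 1 cell clone. With 1 group and n = 2, values are given as descriptions with their spread, and no p-value was computed.

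NUDT21, also called CFIm25, is the small subunit of cleavage factor Im. It binds the RNA word UGUA upstream of cleavage sites and steers the choice of polyadenylation site, so its best known place is on nascent RNA near gene ends. CUT&Tag reads the DNA close to an antibody-bound protein, whether that protein touches DNA, RNA or another protein. Stretches between genes can hold enhancers, unannotated transcripts, read-through transcription past gene ends, or none of these, and a peak position alone does not tell which.

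The sequences below show what the summits of these regions looked like. Each is the 201 bp of hg38 centred on the replicate 1 summit, written on the plus strand. The first 4 come from the 10 regions that ranked highest by fold in both replicates, the next 4 from the highest region of TCF3, TCF7, NOTCH1 and HMGA1, and the last from a region made of a tandem repeat. Capitals mark TGTA (the DNA form of the NUDT21 RNA word), CAGCTG (an E-box, the site type of TAL1 and TCF3), GGGCGG (the SP/KLF type) and TGTGGT (the RUNX type), each sought on both strands. A TGTA on the minus strand appears as TACA on the plus strand, and CAGCTG can share its last letters with a following TGTA.
IER2 region (chr19:13163598-13163798, plus strand): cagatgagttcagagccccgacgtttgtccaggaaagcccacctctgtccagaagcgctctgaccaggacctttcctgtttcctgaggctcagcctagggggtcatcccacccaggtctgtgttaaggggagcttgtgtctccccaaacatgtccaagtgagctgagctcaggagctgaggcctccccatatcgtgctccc
ZNF683 region (chr1:26378398-26378598, plus strand): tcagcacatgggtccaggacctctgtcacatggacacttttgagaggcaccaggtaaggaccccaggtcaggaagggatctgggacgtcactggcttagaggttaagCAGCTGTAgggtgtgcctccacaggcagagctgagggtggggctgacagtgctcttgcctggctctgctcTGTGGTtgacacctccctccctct
GUCY2D region (chr17:7990011-7990211, plus strand): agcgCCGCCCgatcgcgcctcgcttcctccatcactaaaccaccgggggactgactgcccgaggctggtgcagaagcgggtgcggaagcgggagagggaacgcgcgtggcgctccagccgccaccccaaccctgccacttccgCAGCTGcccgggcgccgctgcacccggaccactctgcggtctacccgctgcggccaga
DRAP1 region (chr11:65932156-65932356, plus strand): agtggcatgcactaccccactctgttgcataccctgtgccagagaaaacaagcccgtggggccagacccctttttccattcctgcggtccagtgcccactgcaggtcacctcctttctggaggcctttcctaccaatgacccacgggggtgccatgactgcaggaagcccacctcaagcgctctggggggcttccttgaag
TCF3 region (chr19:1668562-1668762, plus strand): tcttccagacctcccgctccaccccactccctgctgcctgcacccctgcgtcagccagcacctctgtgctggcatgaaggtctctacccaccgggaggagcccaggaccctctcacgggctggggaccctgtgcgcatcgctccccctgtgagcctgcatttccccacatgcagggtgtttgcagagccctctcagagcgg
TCF7 region (chr5:134087140-134087340, plus strand): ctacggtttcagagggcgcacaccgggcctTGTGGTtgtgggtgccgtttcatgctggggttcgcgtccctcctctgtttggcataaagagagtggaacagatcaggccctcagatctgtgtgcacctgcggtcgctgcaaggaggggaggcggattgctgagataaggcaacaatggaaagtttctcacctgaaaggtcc
NOTCH1 region (chr9:136553705-136553905, plus strand): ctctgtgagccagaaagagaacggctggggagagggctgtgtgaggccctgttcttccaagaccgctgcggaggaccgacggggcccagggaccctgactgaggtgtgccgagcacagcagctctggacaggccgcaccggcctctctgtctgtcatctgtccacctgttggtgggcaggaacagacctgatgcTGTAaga
HMGA1 region (chr6:34226791-34226991, plus strand): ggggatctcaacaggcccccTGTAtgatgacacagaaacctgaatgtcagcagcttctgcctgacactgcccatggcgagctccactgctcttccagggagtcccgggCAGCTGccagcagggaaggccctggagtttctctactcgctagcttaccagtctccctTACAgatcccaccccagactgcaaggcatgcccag
BRD3OS region (chr9:134014197-134014397, plus strand): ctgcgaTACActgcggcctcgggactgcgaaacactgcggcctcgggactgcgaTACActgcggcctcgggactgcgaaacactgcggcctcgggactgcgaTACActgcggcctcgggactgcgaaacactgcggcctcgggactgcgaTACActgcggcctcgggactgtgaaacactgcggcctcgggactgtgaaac

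TGTA was absent from both strands in 5 of the 9 windows, those of IER2, GUCY2D, DRAP1, TCF3 and TCF7. The ZNF683 window held 1 E-box that ran straight into 1 TGTA, with 1 RUNX-type word further on. The GUCY2D window had 72.1% GC and 24 CpG, against 58.2% and 4 CpG in the IER2 window. The BRD3OS window repeated 1 unit, and its 4 TGTA matches were 1 match copied along the repeat. A match is a description of letters and not evidence of a bound factor.

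Most peaks between genes near a promoter were weaker and shorter than promoter peaks. The fold enrichment of the peak caller, that is the pileup at the summit over the local background, had a median of 4.22 in replicate 1 and 4.23 in replicate 2, or 4.23 ± 0.00219 (SD, n = 2). Whether that background came from the sample itself or from a control library was not tested, and the methods name no control. The pileups of replicate 1 were fitted with a scale of 0.921 and those of replicate 2 with a scale of 1. Scales other than 1 and a narrow range around 0.921 were not tried. Worked out from fold and −log10 p, the background of shared peaks in replicate 1 had medians of 7.00014 at promoters and 6.00013 inside genes. Both lay at nearly whole numbers, while 5.55334 for the near-gene peaks and 6.1379 for far intergenic peaks did not. In replicate 2 these medians were 3.96559 at promoters, 3.78534 inside genes, 3.34186 for near-gene and 3.89883 for far intergenic peaks. The quartiles of the fold were 3.43 and 5.26 in replicate 1, and 3.49 and 5.17 in replicate 2. Promoter peaks found in both replicates had medians of 4.73 and 4.49, peaks inside genes but outside promoters 4.16 and 4.19, and intergenic peaks more than 50 kb from a coding start 3.81 and 3.89. Median length was 749 bp and 629 bp, against 1089 bp and 806 bp for promoter peaks and 679 bp and 572 bp for the far intergenic peaks. A long peak is more likely to reach a gene or the 3 kb around a start, which the rule leaves out. The difference in length from promoter peaks is therefore partly set by the rule. About 29 fragments in replicate 1 and 18 in replicate 2 stood behind a median summit, a number worked out from each peak's fold and its −log10 p. At that depth a single summit's fold carries a wide counting error, which the fragment intervals below show.

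By a touch of 1 bp, these peaks were shared less often than promoter peaks, which were longer. Before the condition on the other replicate, 10231 peaks of replicate 1 and 6762 of replicate 2 met the rule. Of these, 49.2% (95% Wilson interval 48.2 to 50.2, counting error only) touched a peak of replicate 2, and 80.2% (79.2 to 81.1) touched a peak of replicate 1. The share over all peaks was 56.4% in replicate 1 and 85.7% in replicate 2. Promoter peaks were shared at 62.9% and 90.5%, peaks inside genes at 50.8% and 80.7%, and far intergenic peaks at 38.3% and 70.6%. Unshared near-gene peaks had lower medians of fold, 3.54 and 3.70. Within the 4770 regions the folds ranked alike, with a Spearman correlation of 0.61 across regions, and 88.8% of regions had folds within 1.5 times of each other. Regions share their local background and sequence between the libraries, so this correlation is a description. The summits of the 2 replicates lay a median of 110 bp apart, and 64.8% lay within 200 bp. Over all pairs of touching peaks this share was 61.0% for the near-gene peaks and 53.9% for promoter peaks, the reverse of the order by touch. It was 60.5% for far intergenic peaks and 60.5% for peaks inside genes, so the near-gene peaks did not stand apart from these.

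**Figure D1:**
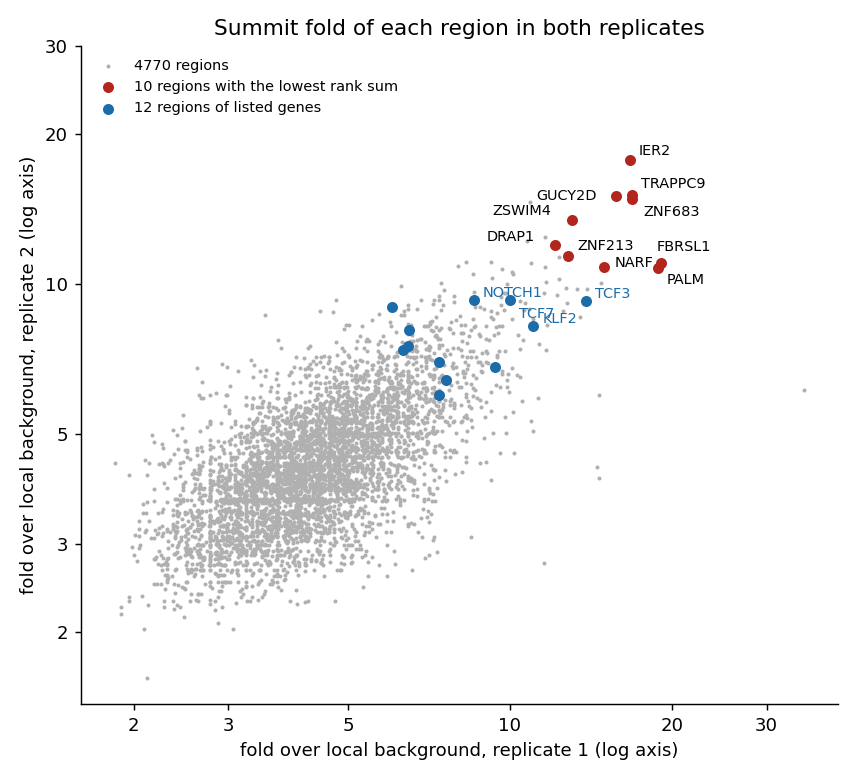
Fold over local background at the summit of each of the 4770 regions, replicate 1 on the horizontal and replicate 2 on the vertical axis, both on log axes. Grey points are all regions, red points the 10 regions of lowest fold-rank sum and blue points the 12 highest regions of listed genes. Of the regions, 98.4% lie between 2 and 10 in both, and the IER2 region is the highest in replicate 2 at 17.7.

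The 10 regions of lowest fold-rank sum stood above 98.7% of all peaks of either list. They were chosen for their folds, which are therefore a description. The highest lay past IER2, an immediate early gene, 11.7 kb beyond its start in the direction of transcription and facing CACNA1A across a convergent gap. It spanned chr19:13161795-13165340, with folds of 16.7 and 17.7 from 107 fragments (95% exact Poisson interval 87.7 to 129) and 71 fragments (55.5 to 89.6), and its summit was at the same base in both replicates. The best promoter peak of IER2 had folds of 16.8 and 14.4, so the distal and the promoter signals were of like size.

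ZNF683 encodes Hobit, a transcription factor of tissue-resident lymphocytes. Its region, chr1:26378213-26378772, lay 3.98 kb upstream of the start, with folds of 16.9 and 14.8. The promoter peaks of ZNF683 reached only 4.07 and 3.86. The region between genes was thus the higher in both replicates. GUCY2D, which encodes a guanylate cyclase of the retina, showed the same order. Its region, chr17:7989518-7990881, lay 12.5 kb upstream and had folds of 15.7 and 15, against 5.30 and 5.92 at the promoter. CNTROB, a centrosome protein gene, bounded the gap on the other side.

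Regions near PALM and FBRSL1 were less even between replicates. PALM, a membrane-associated phosphoprotein gene, had a region at chr19:701219-704666, 5.0 kb upstream, with folds of 18.8 and 10.7, or 14.8 ± 5.72 (SD, n = 2). For FBRSL1 the region at chr12:132474001-132482365 had folds of 19.1 and 11, with the 2 summits 5041 bp apart. In that FBRSL1 region 13.7% of the bases lay in 20-base words that recur within it. Both regions were higher in replicate 1, and both lay within 1 Mb of a chromosome end, at 0.704 Mb and 0.801 Mb.

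Most of the remaining regions of this rank were more even, with NARF as the exception. ZSWIM4 had a region 29.1 kb from its start, at chr19:13846195-13848086, with folds of 13.0 and 13.4, and the nearest annotated gene of any type was MIR23AHG, the host of a microRNA cluster, 3266 bp away. NARF, which encodes a protein that binds prenylated prelamin A, had folds of 14.9 and 10.8 at 16.4 kb. ZNF213, a zinc finger gene, had 12.8 and 11.4 at 15.2 kb. DRAP1, which encodes a subunit of the transcriptional repressor NC2, had 12.1 and 12 at 12.5 kb, or 12.1 ± 0.111 (SD, n = 2). A second DRAP1 region at 8.38 kb had folds of 12.4 and 10.2.

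The second place of all belonged to a region 5.94 kb upstream of TRAPPC9, which encodes a subunit of a vesicle tethering complex. Its folds were 16.9 and 15.1, from 151 and 82 fragments, and its summits lay 2 bp apart. The best TRAPPC9 promoter peak had folds of 7.93 and 5.09. In 6 of these 10 regions the fold was above the best promoter fold of the gene in both replicates. Over all 4331 regions whose gene had a promoter peak in both replicates, this was so for 420 (9.70%), and the fold was below the best promoter fold in both replicates for 3077 (71%). The best promoter fold is the highest of several peaks in many genes, so it is favoured by that choice. Its medians were 6.76 and 5.92, against 4.33 and 4.29 for the regions.

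Genes with such a region were mostly genes whose promoters carried NUDT21 peaks as well. A peak within 3 kb of a transcript start was present in both replicates for 57.0% of 20033 protein-coding genes. Among the genes nearest to an intergenic near-gene peak, it was present for 86.2% of 2367 (interval 84.8 to 87.6) in replicate 1 and 86.4% of 2441 (85.0 to 87.7) in replicate 2. Genes nearest to a shared peak over 50 kb away were also above the share of all genes, at 74.1% of 528 and 74.1% of 533. The relation was therefore not particular to the near-gene peaks. Genes that had at least 1 kb of sequence meeting the rule, but no near-gene peak, stood at 39.8% of 9545 (38.8 to 40.8). The share rose with the number of regions, from 80.8% for genes with 1 region to 91.2% with 2 or 3, 95.4% with 4 to 6 and 98.8% with 7 or more (79 of 80). By distance it was 92.0% and 92.8% for peaks 3 to 5 kb from the start, 92.3% and 92.6% at 5 to 10 kb, and 86.4% and 85.9% at 40 to 50 kb. Genes with much intergenic sequence had promoter peaks less often, so genes were also compared within classes of that length. With 1 to 10 kb the share was 94.9% with a region and 57.1% without, with 10 to 30 kb 87.5% and 39.3%, and with 30 kb or more 75.4% and 24.1%. No pair of intervals overlapped. Only 184 regions (3.86%) belonged to a gene with no promoter peak in either replicate.

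**Figure D2:**
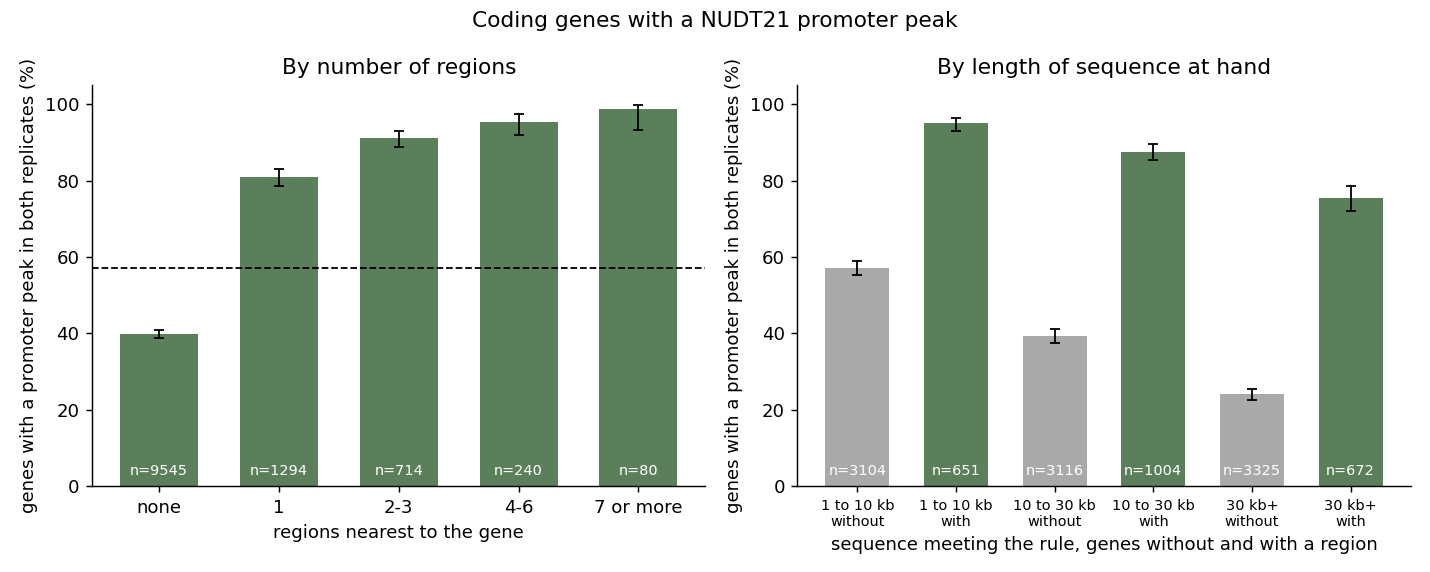
Share of coding genes with a NUDT21 promoter peak in both replicates, by the number of intergenic near-gene regions (left, dashed line at 57.0% for all coding genes) and by the length of sequence that meets the rule (right, grey without and green with a region). Bars are percentages with 95% Wilson intervals and n is the number of genes. The share runs from 39.8% with no region to 98.8% with 7 or more, and green exceeds grey in each length class.

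The sequence whose single positions met the rule was 282 Mb (9.59% of the genome), and the peaks were spread over it unevenly. A peak had to clear the limits with its whole length, so somewhat less of this sequence was open to summits. On average it held 17.9 peaks per Mb in replicate 1 and 19.3 in replicate 2. Density was highest 5 to 10 kb from the nearest coding start, 27.5 and 30.2 per Mb, and fell to 9.997 and 10.7 at 40 to 50 kb. At 3 to 5 kb it was 23.4 and 26.8. The part of peak length in that lower value, next to the 3 kb limit, was not tested. The nearest region to its start was that of GIPC3, 3135 bp upstream with folds of 3.28 and 4.23, and the farthest that of GPC1, 49830 bp upstream with folds of 3.25 and 2.31. Peaks lay upstream of the nearest start in 66.9% and 66.2% of cases, against 72.4% of the sequence. Gaps between 2 convergent genes held 17.5% and 18.1% of the peaks and 14.4% of the sequence, and gaps between divergent genes 28.2% and 28.3% against 32.9%. The stretch 1 to 5 kb past a coding gene end held 17.6% and 18.5% of the peaks and 9.21% of the sequence.

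Density differed widely with local base composition. In the 1 kb around a position, median GC was 54.8% and 55.1% at the peaks and 42.3% over the sequence meeting the rule. Where GC was under 40%, 106 Mb held 1 peak in each replicate. Density rose to 10.6 and 10.6 per Mb at 45 to 50% GC, 78.4 and 80.9 at 50 to 55%, 199.5 and 222 at 55 to 60%, and 232 and 280 at 60 to 65%. It was lower again at 65% or more, 150 and 161 per Mb. The peaks of 50% GC or more were 86.5% and 87.6% of all, from 12.9% of the sequence. They were nevertheless not CpG islands in the main. The ratio of observed to expected CpG had a median of 0.28 in both replicates. Limits of 55% GC, a CpG ratio of 0.65 and 500 bp were met by 1.61% and 1.22%, against 17.1% and 13.5% of promoter peaks. Shared peaks inside genes stood at 0.957% and 0.786% and far intergenic peaks at 2.30% and 1.45%. These classes, too, leave out the 3 kb around any start, so the low share was not particular to the near-gene peaks.

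**Figure D3:**
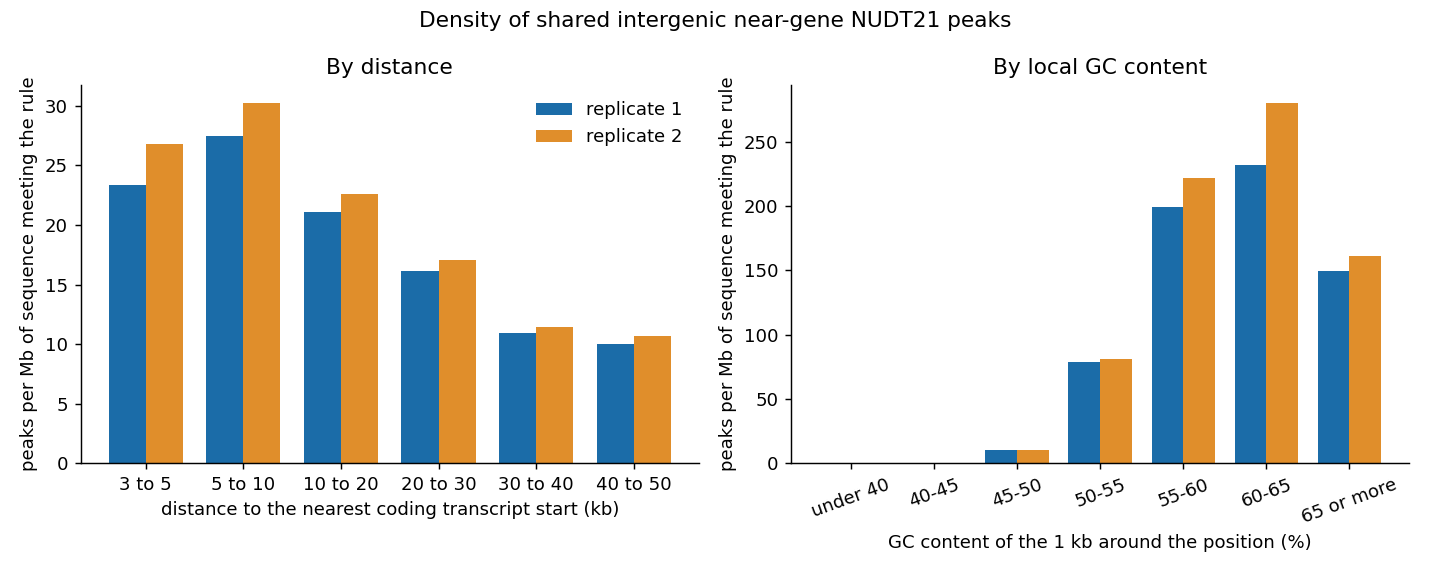
Shared intergenic near-gene peaks per Mb of sequence meeting the rule, by distance to the nearest coding start (left) and by GC content of the surrounding 1 kb (right), with 1 bar for each replicate. Density is highest at 5 to 10 kb, with no allowance for peak length next to the 3 kb limit. By GC, it rises from almost 0 under 45% to 232 and 280 per Mb at 60 to 65%.

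At matched GC the positional differences varied with the GC class, smaller in some classes and, for gene ends and distance, wider in others. Within 5 Mb of a chromosome end the density was 58.4 and 69.8 per Mb, against 14.0 and 14.5 elsewhere. At 55 to 60% GC these densities were 191 and 231 near the ends and 203 and 218 elsewhere. At 45 to 50% they were 19.7 and 21.8 against 9.65 and 9.41, and at 65% or more 190 and 229 against 102 and 81.4. Past a coding gene end, at 1 to 5 kb, density was 34.1 and 38.7 per Mb against 16.2 and 17.3 in other places. At 55 to 60% GC it was 205 and 250 against 198 and 217, and at 50 to 55% 108 and 109 against 73.7 and 76.4. At 45 to 50% it was 21.4 and 22.5 against 9.36 and 9.21, a somewhat wider ratio than over all GC. At 60 to 65% the order turned in both replicates, with 177 and 256 past gene ends and 243 and 285 in other places. The decline with distance persisted at 50 to 55% GC, from 110 and 114 per Mb at 3 to 10 kb to 49.8 and 49.97 at 30 to 50 kb. At 45 to 50% GC it was steeper, from 18.6 in both replicates to 3.74 and 3.98. At 60 to 65% GC it did not hold in replicate 1, with 168 and 201, while replicate 2 had 261 and 235. At 65% or more it turned in both replicates, from 124 and 103 per Mb at 3 to 10 kb to 157 and 148 at 30 to 50 kb. The relation with promoters held in each GC class. At 55 to 60% GC, sequence whose nearest gene had a promoter peak in both replicates held 258 and 288 per Mb. The rest, whose nearest gene lacked a promoter peak in at least 1 replicate, held 69.99 and 75.2. At 50 to 55% the values were 115 and 117 against 16.3 and 17.8.

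Chromosomes 19, 22 and 17, which are rich in genes and GC, were the densest. Chromosome 19 held 73.9 and 79.8 peaks per Mb, chromosome 22 held 70.3 and 79.7, and chromosome 17 held 59.1 and 65.4. Chromosome X had 1.92 and 2.11 per Mb. Between the densest chromosome and chromosome X the density differed in both replicates by far more than the replicates differed from each other.

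At finer scale the summits were GC peaks poor in the NUDT21 word. Windows reached 100 bp to each side of a summit. In them, mean GC was 59.6% and 58.9%, against 55.3% and 55.6% in the adjoining windows. TGTA was found in 50.6% of summit windows and 58.4% of flanking windows in replicate 1 and in 52.2% and 57.1% in replicate 2. The mean log2 ratio was −0.17 ± 0.05 (SD, n = 2). The poly(A) signal AATAAA was rarer still at summits, 3.57% and 4.41%, against 9.51% and 9.40% in the flanks. TGTA and AATAAA are both rich in A and T, and the part of the GC difference in these ratios was not tested. In promoter peaks of replicate 1 the TGTA ratio was −0.18 and in far intergenic peaks −0.26, close to the −0.21 of the near-gene peaks.

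Among the transcription factor words, GGGCGG and CAGCTG were more frequent at summits than in flanks in both replicates. GGGCGG was in 15% and 13.2% of summit windows and in 10.9% of flanks in both replicates, and the E-box CAGCTG in 18.4% and 18.5% against 14.9% and 15.5%. The RUNX word TGTGGT was at 14.2% and 15%, against 15.2% and 14.9%, and so differed in sign between the replicates. The ETS word AGGAAGT was at 4.03% and 4.04%, against 4.04% and 4.30%. AGATAA, the GATA word, was at 2.24% and 2.78%, below its flanks at 4.73% and 4.43%. AACTG, the MYB word, stood at 22.8% and 23.7% against 26.7% in both sets of flanks. The CTCF consensus was found in 0.755% and 0.572% of summit windows, and its ratio to the flanks changed sign between replicates. For comparison, windows at shared promoter peaks of replicate 1 held GGGCGG in 27.0% and CAGCTG in 17.5%. Shared peaks inside genes had the same order in both replicates. Their log2 ratios to the flanks were 0.48 and 0.28 for GGGCGG, 0.27 and 0.21 for CAGCTG, and −1.19 and −1.06 for AGATAA. Summits were richer in GC than flanks, and the part of that difference in the shares of all these words was not tested.

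**Figure D4:**
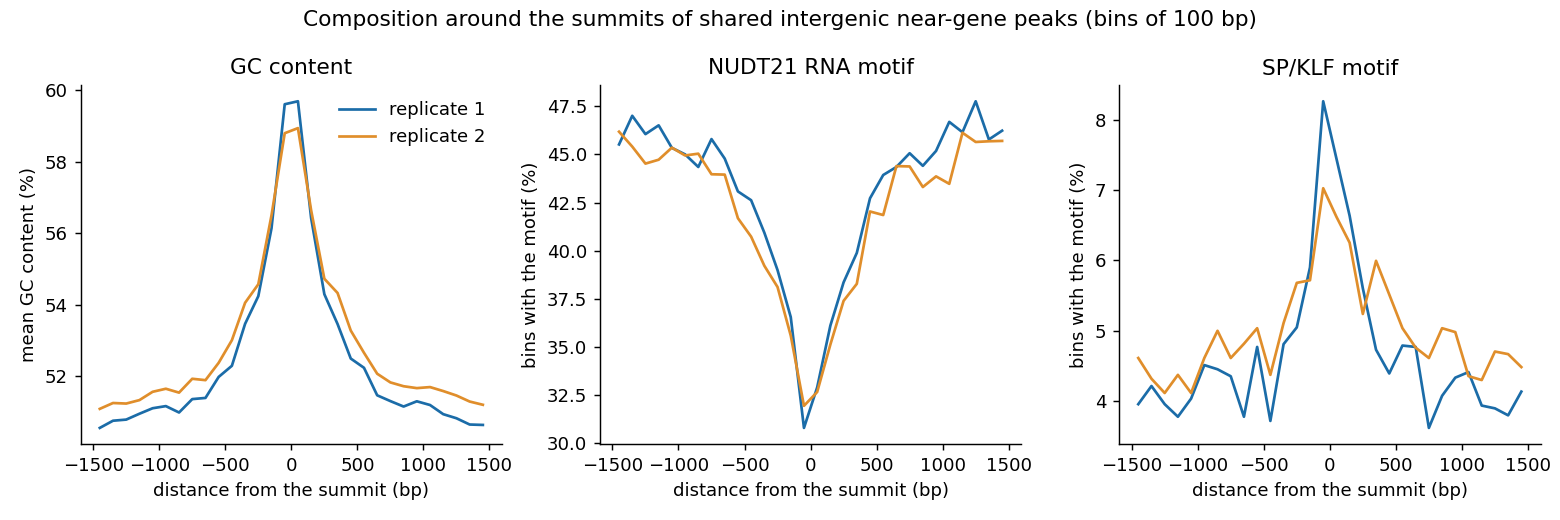
Mean GC content, share of 100 bp bins with the NUDT21 RNA motif and share with the SP/KLF motif, by distance from the summit of the shared intergenic near-gene peaks, 1 line for each replicate. GC and the SP/KLF motif have their maximum at the summit and the NUDT21 motif its minimum, in both replicates.

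Regions were often grouped. The 4770 regions lay in 2078 gaps between neighbouring coding genes, of 10742 gaps with sequence meeting the rule. Of the 2078 gaps, 1084 held 1 region, 248 held 5 or more, and those 248 held 1764 regions (37.0%). The 5 gaps with the most regions had from 15 to 27. The gap between TCF3 and ONECUT3 on chromosome 19 was first, with 27 regions from 1656663 to 1743761, or 3.27 per 10 kb of its sequence meeting the rule. Peaks were joined only where they touched, and some regions here were close neighbours, such as 1676441 to 1677037 and 1677441 to 1678196. How far such counts reflect the way the caller divided a stretch of signal was not tested. TCF3 encodes the E proteins E12 and E47, partners of TAL1 and central to lymphoid development, and ONECUT3 is a homeobox gene of neural and endocrine tissues. TCF3 was the nearest gene for 19 of the 27, all upstream of it. The folds in this gap spanned 2.47 to 13.9 in replicate 1, and 2.82 to 9.22 in replicate 2, and 13 of 27 were above the median of all regions in both. Over all regions that share was 35.5%.

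The second gap lay between TEX44 and PTMA, with 20 regions over 102 kb of chromosome 2 and folds of up to 12.6 and 8.80. PTMA encodes prothymosin alpha, an abundant nuclear protein of dividing cells, and was the nearest gene for 12. CCDC188 and RTN4R on chromosome 22 bounded 18 regions, with a median GC of 61.2% in the gap and no fold above 6.93 or 6.42. EEIG1 and NAIF1 on chromosome 9 bounded 15 regions in 43.0 kb, with folds of up to 7.59 and 7.02. VDAC1, an outer mitochondrial membrane channel gene, and TCF7 on chromosome 5 bounded 15 regions over 85.2 kb. TCF7 encodes TCF-1, which directs early T-cell development, and it was the nearest gene for 9 of them. The median GC of the sequence meeting the rule was 54.9% in the TCF3 gap and 49.1% in the TCF7 gap, both above the 42.3% over all such sequence.

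**Figure D5:**
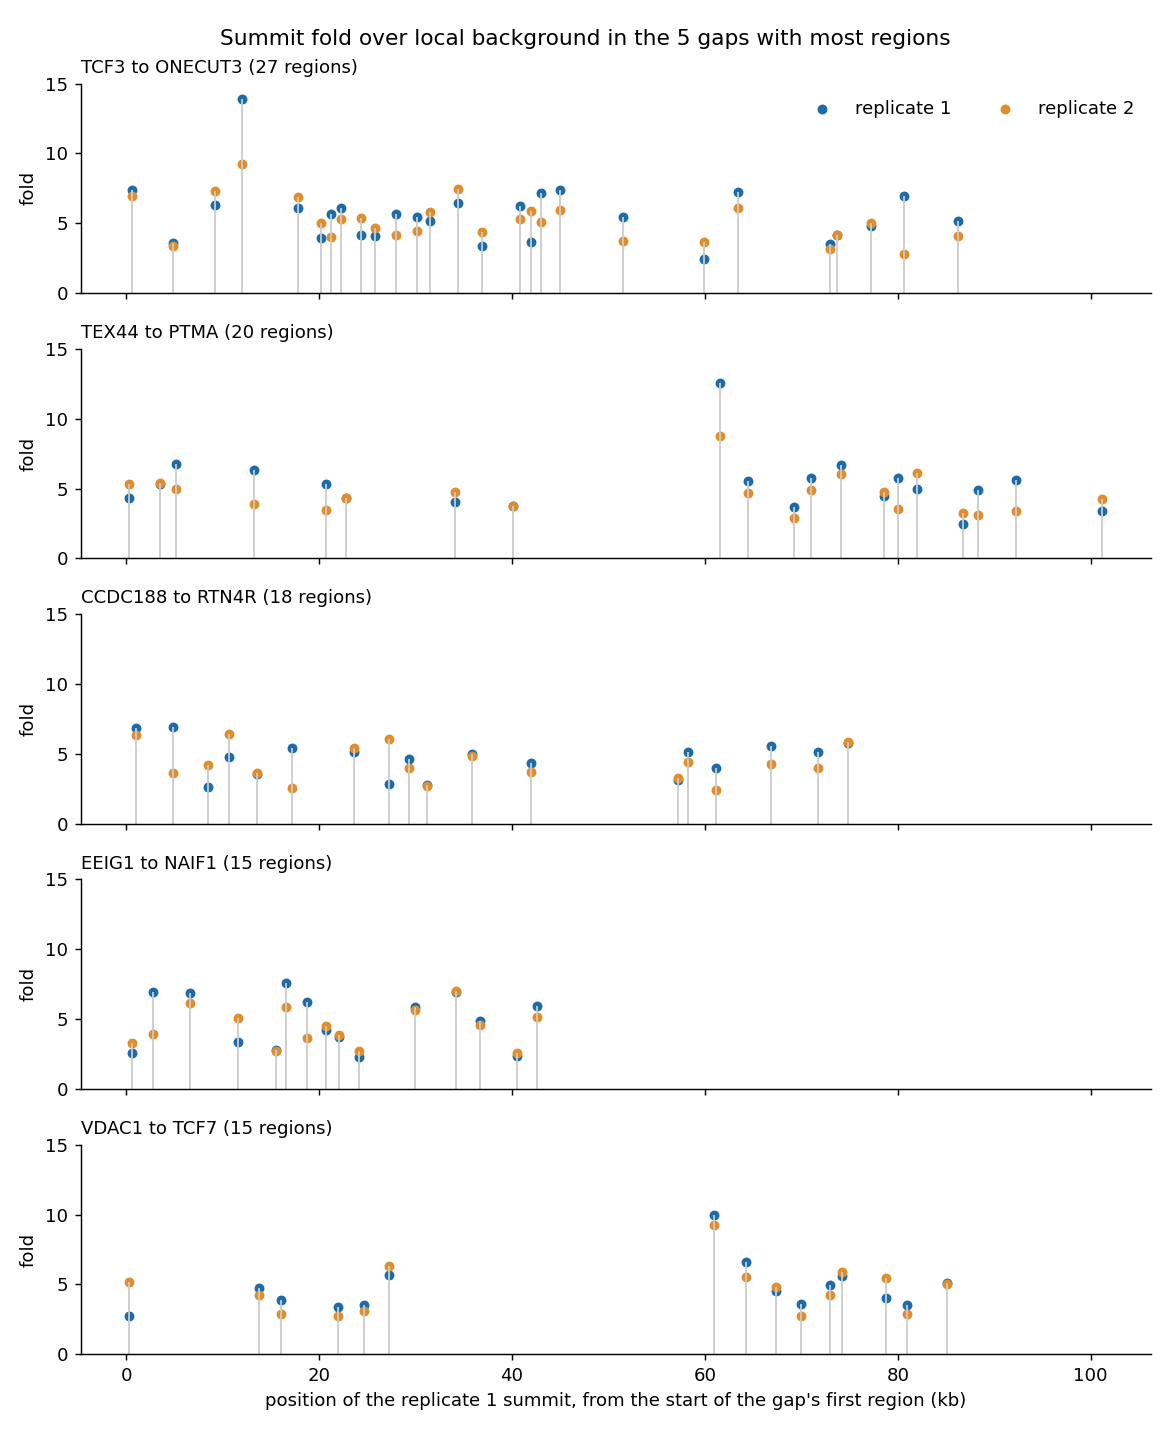
Fold over local background of each region in the 5 gaps with the most regions, by position of the replicate 1 summit in kb from the start of the first region of the gap. Points are replicate 1 (blue) and replicate 2 (orange). The TCF3 to ONECUT3 gap has 27 regions with 1 at 13.9 and 9.22, and the CCDC188 to RTN4R gap has none above 6.93.

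Regions near transcription factor genes of T cells and T-ALL were read against the rate of all genes. Over all protein-coding genes, 11.6% were nearest to at least 1 region. Of 30 T-lineage transcription factor genes 12 (40%) were, with 50 regions whose median folds were 4.44 and 4.79, against 4.25 and 4.25 for all regions. TCF3 alone gave 19 of the 50, and the other 31 had medians of 4.12 and 4.29, below the median of all regions in replicate 1. Of 22 T-ALL transcription factor genes 6 (27.3%) were, with 16 regions of median fold 3.95 and 4.06, and without the 8 of NOTCH1 these medians were 3.18 and 3.81. Both of these leave-outs were chosen after the data were seen. Of 24 genes of 3′ end processing 2 were (8.33%), SSU72 and PAPOLG, each with 1 region. SSU72 encodes a phosphatase of the RNA polymerase II tail that works with the cleavage machinery, and its region had folds of 4.01 and 4.38, while that of PAPOLG, a poly(A) polymerase gene, had 2.82 and 2.72. Of 13 genes listed as named by the study 1 was (7.69%), HMGA1, near the 11.6% over all genes. Promoter peaks in both replicates were present at 12 of these 13. SSU72, which the study also named, was counted only under 3′ end processing. Of 20 T-cell marker genes 7 had a region (35.0%) and of 20 markers of other blood cells 4 did (20%). Promoter peaks in both replicates were present at 12 and 13 of these 20, about as often at the T-cell markers as at the markers of other blood cells. The region folds differed more. The 18 regions of T-cell markers had medians of 5.43 and 5.51, and the 5 of the other markers 3.16 and 3.37. The part of single genes in these medians was not tested. Lists are small, and their genes differ in surrounding sequence, so no test was made.

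TCF3, TCF7, NOTCH1, RUNX3 and HMGA1 had the most regions among the listed genes, and all of their regions lay upstream. The rule bars gene bodies and distances over 50 kb from a coding start, so a long gene can leave little sequence past its end. The sequence open on each side of these genes was not compared, so their upstream position is a description. The TCF3 region at chr19:1668472-1669558, 16 kb upstream, had folds of 13.9 and 9.22 from 58 fragments (44 to 75) and 25 fragments (16.2 to 36.9). It was the highest of the listed genes by rank sum, and still below the best TCF3 promoter folds of 26.2 and 15.3. The TCF3 regions next in rank lay at 4.67 kb with folds of 7.38 and 6.95, at 38.4 kb with 6.47 and 7.49, at 13.3 kb with 6.33 and 7.35, and at 49.1 kb with 7.39 and 5.99. These stretch across the whole range of the rule.

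For TCF7 the highest of 9 regions lay 27.4 kb upstream at chr5:134086905-134088497, with folds of 9.99 and 9.27 and summits 2 bp apart. Its best promoter folds were 11.5 and 10.7. The other TCF7 regions lay between 3.29 kb and 24.1 kb upstream, and the lowest folds among the 9 were 3.51 and 2.74. KLF2, a factor of T-cell quiescence and trafficking, had 4 regions. The highest was 5.89 kb past its start, with folds of 11.1 and 8.22, above its best promoter folds of 9.27 and 4.38 in both replicates. KLF2 regions at 10.6 kb and 13.5 kb followed, with folds of 7.62 and 6.40 and of 6.05 and 8.98. Replicate 1 was the higher in the first 2 of these and replicate 2 in the third.

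NOTCH1, the receptor most often activated by mutation in T-ALL, had 8 regions, all between it and EGFL7. The highest was 7.76 kb upstream, at chr9:136552662-136557422, with folds of 8.57 and 9.27, and the nearest annotated gene to it was NALT1, a long noncoding RNA 2768 bp away. Further NOTCH1 regions lay at 41.5 kb with folds of 9.39 and 6.82 and at 29.9 kb with 6.49 and 8.06, the latter with summits 3438 bp apart. Best NOTCH1 promoter folds were 14.4 and 7.34. RUNX3, a factor of cytotoxic T cells, had 8 regions from 16.4 to 44.9 kb upstream with modest folds of 2.38 to 5.06 and 2.91 to 5.28. HMGA1, a chromatin protein gene that the study followed, had 6 regions from 5.26 to 39.9 kb upstream, with folds of 4.07 to 8.29 and 3.51 to 6.79.

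TAL1, LMO1 and TLX1, oncogenes of T-ALL subtypes, were named here after their values were seen. TAL1 had 3 regions. The 1 upstream, 9.08 kb from the start in the gap toward STIL, had folds of 2.94 and 3.62, and those on the far side of the gene had 2.49 and 4.0 and 1.90 and 2.24. LMO1 had 1 region 15.3 kb upstream with folds of 4.18 and 4.13, and TLX1 had 2 with folds of 3.42 to 3.71 and 2.46 to 4.49. These values were near or below the median of all regions.

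Tandem repeats accounted for a small share of the regions. More than 10% of bases lay in recurring 20-base words in 181 of the 4770 regions (3.79%), and in 8 of the 100 highest. The BRD3OS region, 11.2 kb upstream, had 93.6% of its bases in such words and folds of 13.3 and 9.74. A PIWIL1 region 44.9 kb from its start had 95% and folds of 11.7 and 10.1. Whether reads in these repeats belong to 1 place was not tested. Of the 100 highest regions, 47 lay within 5 Mb of a chromosome end, against 27.8% of all regions.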

How the data were processed

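Biological replicates of J.gamma1 cells (n = 2) were profiled by CUT&Tag with a kit of Vazyme. Per the methods and processing notes, the authors trimmed reads with fastp, aligned them to hg38 with Bowtie2 (2.2.5), removed duplicates with Picard and called peaks separately in each replicate with MACS3 (3.0.1). The caller's settings are not given in the sources used here. The deposited lists held the fold at the summit over local background (a ratio), −log10 p and −log10 q, the summit position, and a score, which was not used. Read totals were not given, so the depth is unknown. Fragments at a summit were solved for with the deposited fold and its −log10 p, with a solution for 99.9% and 100.0% of peaks, after a pileup scale of 0.921 in replicate 1. From 2000 peaks simulated with the same formula, those that passed a filter on −log10 p were tried, and the fragments of 100% were returned. This checks the solution and not how the caller made its values.

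Genes and transcript starts came from GENCODE release 44. The nearest start was that of a protein-coding transcript. Sequence meeting the rule was sampled as single positions every 100 bp. A region was a set of touching peaks of both replicates that met the rule, and its values were those of its peak with the highest fold in each list. Named regions were the 10 with the lowest sum of fold ranks, up to 12 of 4 gene lists by the same sum, the 5 gaps with the most regions, and those nearest to and farthest from their starts. Members and lists were chosen with earlier results of these data known. Intervals are 95% Wilson or exact Poisson intervals and cover counting error only. No test was run, since both samples form 1 group. Alternatives were other overlap rules, thresholds, distances, starts, windows, and each replicate alone. Python 3.11.15, numpy 2.4.6, scipy 1.17.1, pandas 2.3.3 and pysam 0.24.0 were used. The sequence of 1 region is not reported here.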

Additional observations from a re-analysis of the deposited data

Results flagged for a closer look

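Peaks on sequences other than chromosomes 1 to 22, X and Y were set aside by the rule, and no control sample was at hand for them. Replicate 1 had 4440 such peaks and replicate 2 had 1861, or 4.79% and 2.79% of the number on the main chromosomes. The share was higher in replicate 1, and how many of these peaks lie between genes was not tested.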

How the results depend on the processing

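The values compared here are means of both replicates, namely 5230 intergenic near-gene peaks, a promoter peak at 86.3% of their nearest genes, a TGTA log2 ratio of −0.17 and a median fold of 4.23. With a 50% reciprocal overlap the promoter share was 86.6% and the median fold 4.31, with summits within 200 bp 3289 peaks, 86.5% and 4.29, and at a −log10 q of at least 5 2938 peaks, 81.8% and 4.90. With the 10000 peaks of highest −log10 p of each list, 249.5 peaks met the rule on average, the promoter share was 63.9%, the TGTA ratio −0.27 and the median fold 7.75. This choice also removes promoter peaks, and the share over all coding genes was then 24.6%. With 5 kb around starts the share was 86.2% and the fold 4.19, with distances of up to 20 kb 3290.5 peaks, 89.3% and 4.36, and with distances of up to 100 kb 84.8% and 4.17. With the starts of all transcripts of coding genes they were 86.7% and 4.20. Promoters within 1 kb gave 80.9%, against 53.7% over all coding genes, and flanks 1000 bp away a TGTA ratio of −0.38. Each replicate alone, with no condition on the other, gave from 6762 (without replicate 1) to 10231 peaks (without replicate 2), promoter shares of 84.3% to 89.2% and median folds of 3.85 to 4.11. TGTA was rarer at summits than in flanks under each of the 12 alternatives. The promoter share exceeded that over all coding genes under each of its 11 alternatives. With 1 group there was nothing to pair. Read depth is unknown, and a median of 29 and 18 fragments at a summit limits the precision of a single fold.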

Other observations

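The 184 regions whose nearest gene had no promoter peak in either replicate belonged to 136 genes and had median folds of 3.83 and 3.86. Their median GC was 57.2%, against 56.7% where the gene had promoter peaks in both. The highest of them by rank sum, chosen after their values were seen, lay 21.1 kb upstream of ACKR3, a chemokine scavenger receptor gene, with folds of 9.01 and 7.74. Next came a region 4.21 kb upstream of ZNF157 on chromosome X with 7.65 and 7.35. SULT2A1, a steroid sulfotransferase gene, and BSPH1 shared a gap on chromosome 19 with a region each, at folds of 7.78 and 5.86 and of 7.08 and 5.81. A region 13.4 kb upstream of CXCR5, the receptor that guides lymphocytes to follicles, had 6.0 and 6.21. For these genes the signal between genes stood without a called promoter peak.

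Some regions differed widely between the replicates. At LRCOL1 on chromosome 12 the folds were 35.2 and 6.12, from 227 and 29 fragments, and 49.8% of the region lay in recurring 20-base words. NPAS1 had 11.6 and 2.75, ZNF778 had 14.7 and 4.08, and ZC3H18 had 14.5 and 4.29 with 45.8% in such words. PRTN3, a neutrophil protease gene, had 8.48 and 3.10. In these 5 regions replicate 1 was the higher, although the median ratio over all regions was 0.996.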
